A study of Mus musculus with 12 samples.

Results

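The effect of lowering Geminin (gene Gmnn) was read on 6 of the 12 arrays, from mouse embryoid bodies of the Geminin knockdown line on day 4. They form 3 pairs of equal replicate number, each with 1 array from cells given doxycycline (dox) and 1 from cells without it, and each gene was read as the difference dox minus no dox in each pair. Of 19938 genes with a probe set, 15950 passed the filter on dim genes and make up the comparison. Both groups were A2lox embryonic stem (ES) cells of the 129P2/OlaHsd background and carried the same cassette, from which dox turns on microRNAs against the cell's own Geminin transcript. The ES cells were grown on irradiated mouse embryonic fibroblasts, separated from these feeders and left to form free-floating aggregates in serum medium, with dox at 0.5 µg/ml from day 0 in the dox group. Dox and the microRNAs it turns on cannot be told apart here, because the groups differ in both. Whether the line is 1 clone is not given in the sources used here. Separate cultures are not stated for the replicates, so a p-value here reflects the scatter of these arrays alone, and that scatter may be technical. The 6 arrays of the overexpression line, in which dox from day 3 turns on Geminin, shared the estimate of spread and served for a test of the difference between lines. That line was collected on day 5 in replicates 1 and 2 and on day 4 in replicate 3.

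Geminin is a nuclear protein that binds Cdt1, the factor that loads the replicative helicase at origins, and so limits DNA replication to 1 round per cell cycle. It also binds chromatin regulators, including Polycomb proteins and the Brg1 subunit of the BAF remodelling complex, and has been studied as a brake on early cell fate choices. In embryoid bodies, ES cells leave naive pluripotency, pass through a state like the epiblast of the early embryo and then turn on genes of the primitive streak, from which mesoderm and definitive endoderm arise, while primitive endoderm forms a separate outer lineage. The study's title names mesendoderm, the shared state before mesoderm and definitive endoderm, as its question.

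Promoter stretches of 5 genes are shown first, because the gene groups that kept a direction in the 3 pairs include interferon, Atf4 and lysosomal genes with well-known binding motifs. They are from RefSeq (GRCm38.p6), 5′ to 3′ on the gene's strand, and capitals mark the motif. The motifs were chosen after the values were seen. Gbp3 and Ctsa have 2 promoter entries each, and the entry shown is the first that holds the motif. Irgm1 at chr11:48871421-48871540 (minus strand) and Gbp3 at chr3:142559924-142560043 (plus strand) hold GAAA, 2 bases of any kind and GAAA again, the core that interferon-activated factors bind, in 2 overlapping copies each (in Gbp3 on the opposite strand). Chac1 at chr2:119350993-119351112 (plus strand) holds TGATGCAA, the composite site of C/EBP and ATF factors such as Atf4, on the opposite strand. Ctsa at chr2:164833653-164833772 (plus strand) and Ctsd at chr7:142387863-142387982 (minus strand) hold TCACGTGA, the CLEAR site of lysosomal genes.
Irgm1: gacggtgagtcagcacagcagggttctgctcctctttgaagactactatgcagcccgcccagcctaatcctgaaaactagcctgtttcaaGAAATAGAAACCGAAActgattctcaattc
Gbp3: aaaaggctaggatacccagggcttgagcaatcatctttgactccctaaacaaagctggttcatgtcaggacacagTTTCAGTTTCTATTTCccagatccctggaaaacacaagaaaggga
Chac1: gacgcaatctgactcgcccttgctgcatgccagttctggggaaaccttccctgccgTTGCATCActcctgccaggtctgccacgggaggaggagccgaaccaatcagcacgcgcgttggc
Ctsa: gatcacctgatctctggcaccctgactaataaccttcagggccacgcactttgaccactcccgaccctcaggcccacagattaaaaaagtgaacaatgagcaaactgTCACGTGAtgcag
Ctsd: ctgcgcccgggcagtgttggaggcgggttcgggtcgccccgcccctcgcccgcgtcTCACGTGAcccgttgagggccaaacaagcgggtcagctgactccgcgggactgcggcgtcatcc
Both strands of the 250 bases before each start were searched, and the interferon core was held by 3.46% of 27025 genes, TGATGCAA by 0.918% and TCACGTGA by 0.907%. The first motif was held by 6 of the 21 interferon response genes with a promoter entry (28.6%), the second by 5 of 25 Atf4 genes and the third by 6 of 44 lysosomal genes (13.6%). These genes are in part known through such sites, and a match is a description of the letters only. The 6 interferon response genes with the first motif include Gbp3, which was higher in each pair, and Bst2 and Rsad2, which were not. B2m, an antigen presentation gene, also holds the first motif and was lower in each pair. Of genes at least 1.2-fold higher in each pair, 6 of 87 with a promoter entry held it (6.9%). Of those at least 1.2-fold lower, 1 of 48 held it (2.08%). Also searched were CTTTGAT, the TCF/LEF site, and GGGCGG, the GC box, held by 3.72% and 35.4% of the 27025 genes. CTTTGAT was held by 2 of 15 Wnt genes with a promoter entry, 4 of the 87 higher genes (4.6%) and 1 of the 48 lower (2.08%). GGGCGG was held by 47 of the 87 (54.0%) and 24 of the 48 (50.0%).

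Gmnn (probe set 10408321) was lower with dox in every pair. Its level on the log2 intensity scale was 10.33, 10.15 and 10.05 without dox and 9.66, 9.74 and 9.63 with dox in replicates 1, 2 and 3. All 3 dox arrays lay below all 3 controls. The pair differences were -0.67, -0.40 and -0.42, with a mean of -0.50 ± 0.10 (SE of the fit), or 1.41-fold lower. The adjusted p of the paired limma fit was 0.235, so the gene did not reach the threshold for a call, an adjusted p under 0.05. An exact two-sided sign permutation over the 3 pairs gave p = 0.25, and an exact permutation over the 6 arrays gave p = 0.1, each the smallest its design allows. The targeted transcript thus lay lower by about the same amount in replicates 2 and 3 and by more in replicate 1.

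The gene that passed the test was Hprt, which codes for a purine salvage enzyme and which in A2lox cells lies beside the dox-responsive cassette. Hprt (probe set 10599627) was at 6.72, 8.18 and 7.33 without dox and at 10.99, 11.40 and 11.28 with dox. The groups did not overlap, and Hprt rose by 3.81 ± 0.22 (SE) on the log2 scale, or 14.1-fold, with pair differences of 4.27, 3.22 and 3.95 (adjusted p = 0.0081). The call was lost with the knockdown arrays alone (adjusted p = 0.176), with a separate effect per day for the overexpression line, and without replicate 1 (log2 difference 3.58, adjusted p = 0.109). In the overexpression line, which carries its cassette at the same place, the Hprt difference with dox was 3.44, and the lines differed by 0.37 ± 0.31 (SE, adjusted p = 0.741 in limma). Of the 15 tested genes on each side of Hprt on the X chromosome, a set chosen after the values were seen, 10 of 30 were higher in all 3 pairs and 2 were lower, against 119 and 36 of 435 other X-linked genes. The neighbours' median difference was 0.15 (0.03 in the overexpression line), and that of the other X-linked genes 0.04. Phf6, the nearest tested gene upstream, had pair differences of 0.28, 0.28 and 0.05. Plac1, the nearest downstream, had 0.23, 0.01 and 0.02.

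**Figure D1:**
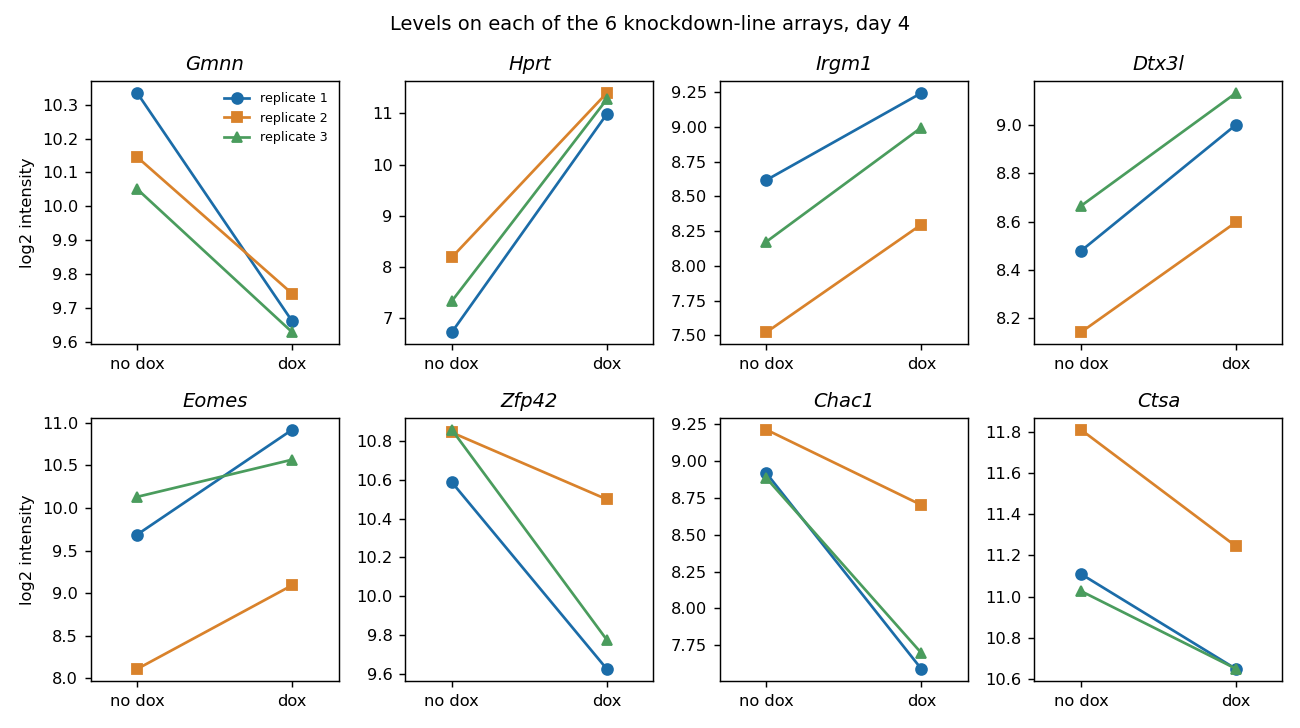
Level of 8 genes on the 6 knockdown-line arrays, as log2 intensity (y axis, scaled for each gene) without and with dox, with a line joining the arrays of 1 replicate. Every line slopes the same way within a gene, but only for Gmnn, Hprt, Zfp42 and Chac1 do the 3 dox arrays lie clear of the 3 controls.

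Across all genes, 1 passed the test as higher with dox (0.00627%) and 0 as lower (0%), while 1199 higher (7.52%) and 742 lower (4.65%) had an unadjusted p under 0.05. The excess of higher genes depended on the scaling, with 775 higher and 1107 lower without quantile normalization and 1222 and 442 with median centring. With a variance prior that follows the mean level and is fitted robustly, 48 genes passed as higher (0.301%) and 39 as lower (0.245%), Gmnn among them (adjusted p = 0.0315). Without the pairing, 599 genes (3.76%; 2.17% higher and 1.59% lower) had an unadjusted p under 0.05 in limma, against 1941 (12.2%) with it, and Hprt was the only call in both. Of all genes, 3105 were higher in all 3 pairs (19.5%) and 1952 were lower (12.2%), 31.7% together, and these shares are the background for the counts below. At least 1.2-fold in each pair was reached by 117 genes that were higher (0.734%) and 62 that were lower (0.389%), 1.12% together. These counts were 75 and 97 without quantile normalization and 177 and 22 with median centring, so their balance turned with the scaling too. The 3 dox arrays lay clear of the 3 controls for 1311 genes (8.22%), above them for 4.97% and below them for 3.25%. At least 1.5-fold in each pair was reached by 2 genes that were higher (0.0125%), Hprt and Irgm1, and by 0 that were lower (0%).

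The pairs were unequal. The SD of the pair differences over the 15950 genes was 0.215 in pair 1, 0.214 in pair 2 and 0.342 in pair 3, and 36, 26 and 200 genes differed at least 2-fold. The correlation of the differences across genes, which are not independent replicates, was 0.17 between pairs 1 and 2, 0.32 between pairs 1 and 3, and -0.14 between pairs 2 and 3. In pair 3 the deposited array median was 182 without dox and 149 with dox, the highest and the lowest of the 6 arrays. The pair 3 differences also correlated with those of replicate 3 in the overexpression line (r = 0.37 over the 15950 genes), where dox turns on Geminin instead. That r was above those between the knockdown pairs. With replicates 1 and 2 of the overexpression line, pair 3 had r of -0.28 and -0.19. Between the lines, pairs of equal number had r of -0.15 in replicate 1 and 0.16 in replicate 2. The deposited median in the overexpression line also fell with dox in replicate 3, from 166 to 156. It rose in replicates 1 and 2 of that line, from 162 to 175 and from 145 to 151. What pair 3 shares with the overexpression line's replicate 3 was not tested. The genes that disagreed most between pairs were Dydc2 (-1.48, 0.18 and -2.88), Usp17ld (0.23, 0.39 and 2.85), Prcc (0.18, 0.27 and 2.82), Lrat (-0.40, 0.43 and -2.41), Mgst1 (-0.76, 0.31 and -2.14) and H2bc21 (-0.39, -1.17 and 1.31). In each of these 6 genes pair 3 held an extreme value.

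**Figure D2:**
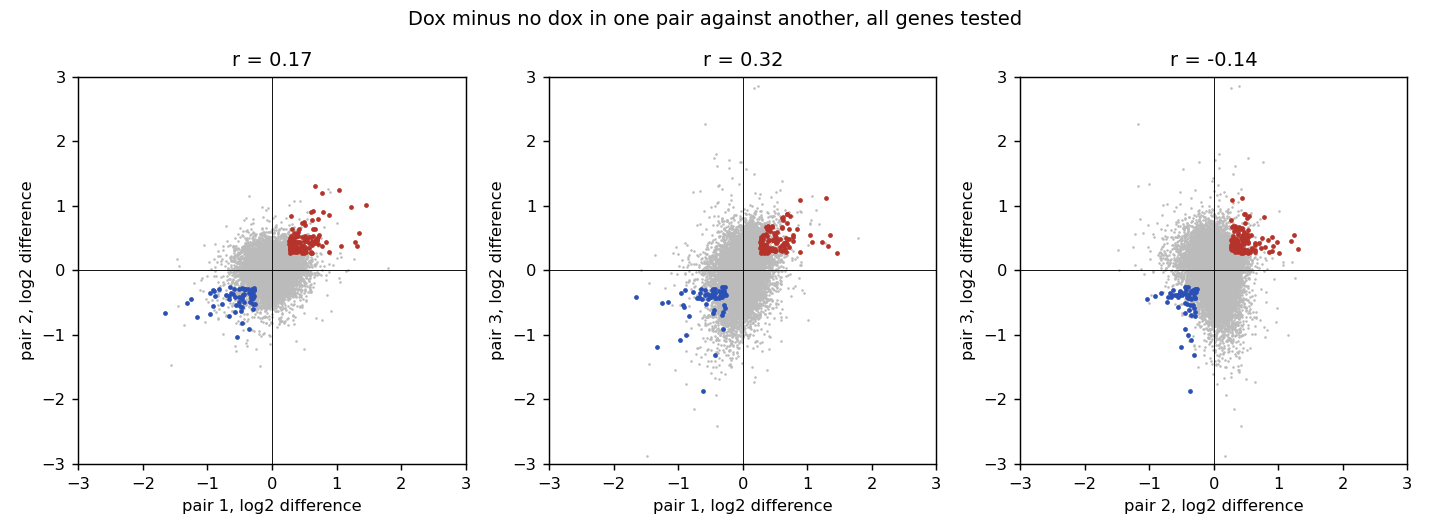
Log2 difference, dox minus no dox, of each of the 15950 genes in 1 pair (x axis) against another (y axis), with the genes at least 1.2-fold higher in each pair in red and at least 1.2-fold lower in blue. The clouds show weak correlations (r of 0.17, 0.32 and -0.14) and are widest along pair 3, and Hprt lies outside the axes.

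Transcription factors of the primitive streak lay higher with dox in part. Of 24 tested members of the primitive streak and mesendoderm list, 13 were higher in all 3 pairs and 1 was lower (19.5% and 12.2% of all genes), and 0 passed the test. The list's median difference was 0.47, 0.20 and 0.12 in pairs 1, 2 and 3, against 0.01, 0.02 and 0.03 over all genes. Eomes, the T-box factor that starts the mesendoderm programme, was at 9.69, 8.11 and 10.13 without dox and 10.92, 9.09 and 10.57 with dox. The groups overlapped because both arrays of replicate 2 lay low, but each dox array lay above its own control, by 1.23, 0.98 and 0.44 (mean 0.88 ± 0.14 SE, adjusted p = 0.159). Mixl1, a homeobox factor of the streak, went from 9.5 to 10.95, from 7.03 to 8.04 and from 9.56 to 9.83. Evx1, a homeobox factor of the posterior streak, had pair differences of 1.35, 0.58 and 0.54, and Cdx2, a posterior patterning factor, 0.89, 0.86 and 0.28. Genes of the anterior streak and organizer differed between pairs. Gsc had 1.14, -0.01 and 0.93, Lhx1 had 1.79, 0.04 and 0.50, and Foxa2 had 1.00, 0.19 and 0.40, so pair 2 held little or none of the difference for these 3. Fgf8, a streak growth factor, had the reverse, with 0.86, 1.26 and -0.12.

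Genes of the Wnt pathway, whose ligands start the streak, lay higher in part. Of 28 tested Wnt targets and feedback genes, 11 were higher in all 3 pairs and 3 were lower, with list medians of 0.20, 0.32 and 0.08. The list shares Mixl1, Evx1, Cdx2, Sp5, Fgf8, Dkk1 and Cdx1 with the streak list. Axin2, a scaffold of the beta-catenin destruction complex and a standard Wnt readout, was at 8.70, 8.0 and 8.87 without dox and 9.34, 8.53 and 9.29 with dox (mean difference 0.53 ± 0.07 SE, adjusted p = 0.159). The ligand Wnt8a, listed with the primed epiblast, was higher by 0.79, 0.90 and 0.52. Rspo3, a secreted amplifier of Wnt signalling listed with nascent mesoderm, was higher by 0.68, 0.49 and 0.74. Sp5 and Lgr5 were also higher in each pair, by 0.76, 0.50 and 0.15 and by 0.31, 0.35 and 0.14. Rnf43, a ubiquitin ligase that removes Wnt receptors, was lower by 0.16, 0.19 and 0.27.

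Primed epiblast genes lay higher as well, and those of nascent mesoderm in part. Of 19 primed epiblast genes, 10 were higher in all 3 pairs and 0 were lower, with medians of 0.13, 0.42 and 0.07. Fgf5, the growth factor that marks the epiblast, was at 10.35, 8.62 and 10.20 without and 10.89, 9.52 and 10.38 with dox. Epha1, an ephrin receptor, was higher by 0.61, 0.91 and 0.29. The size differed by pair, and pair 2 held the largest difference in both. Of 24 nascent and paraxial mesoderm genes, 7 were higher in all 3 pairs, among them the Notch ligand Dll3 (0.78, 0.38 and 0.55) and Wnt5a (1.07, 0.38 and 0.44), and the median was 0.07. Among lateral mesoderm and blood regulators, the receptor Kdr was higher by 0.26, 0.70 and 0.39, Etv2 by 0.31, 0.34 and 0.39, and Lmo2 by 0.41, 0.59 and 0.35. The medians of those lists were 0.07 and -0.03, so these members stood apart from most of their lists. Id3, a BMP target, was higher by 0.63, 0.64 and 0.43 in a BMP list with a median of 0.02. Outside the lists, and chosen after their values were seen, the apelin receptor Aplnr and the T-box factor Tbr1 were higher in each pair, by means of 0.95 and 0.94. Both were dim without dox, Aplnr at 7.18, 6.14 and 6.52 and Tbr1 at 6.64, 5.84 and 6.72. The filter on dim genes lay at 6.46.

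**Figure D3:**
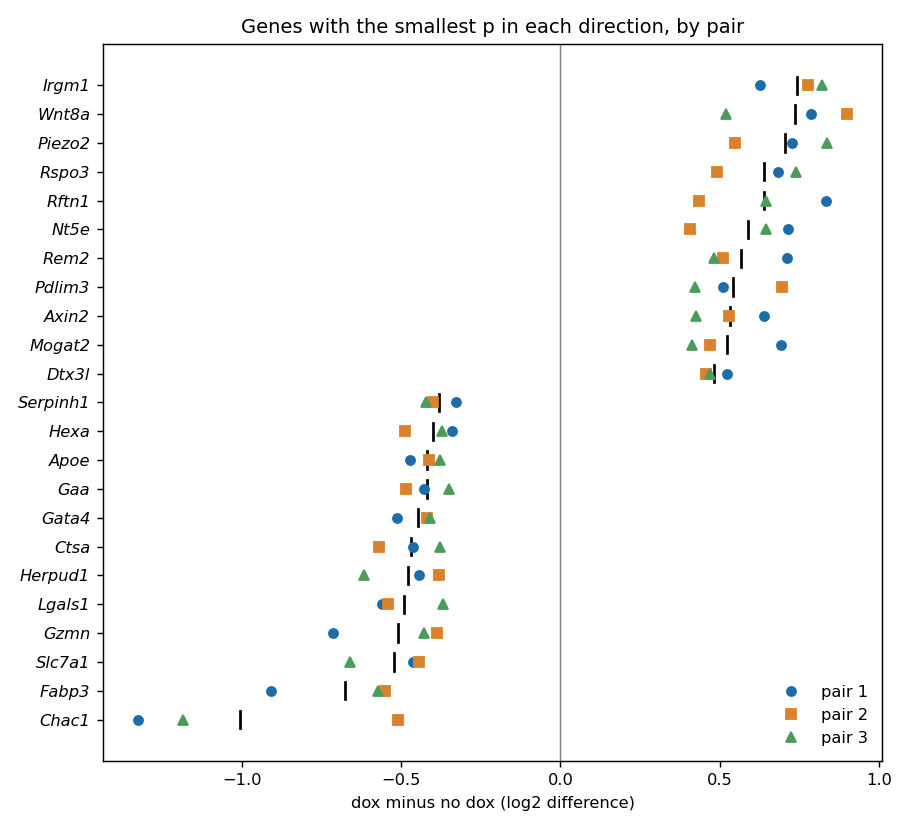
Log2 difference, dox minus no dox, in each of the 3 pairs (points) and their mean (bar) for the genes of smallest p in each direction, without Hprt. The 3 points of each gene lie on 1 side of 0, as the choice of genes required, and Chac1 has the widest spread (-1.32 to -0.51).

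Naive pluripotency genes lay lower in pairs 1 and 2, and fewer of them in pair 3. Of 23 members, 10 were lower in all 3 pairs and 1 was higher, and the medians were -0.47, -0.41 and -0.05 by pair. Zfp42 (Rex1), a marker of undifferentiated ES cells, was at 10.59, 10.85 and 10.86 without dox and 9.62, 10.50 and 9.77 with dox, and the groups did not overlap (mean difference -0.80 ± 0.14 SE, adjusted p = 0.199). Nr0b1 was lower by 1.65, 0.66 and 0.42, and Esrrb, an orphan nuclear receptor, by 1.46, 0.56 and 0.20. For Tfcp2l1 and Fbxo15 the differences in pair 3 were -0.05 and -0.06, against -1.02 and -0.90 in pair 1. Nanog was the 1 member higher in all 3 pairs, by 0.19, 0.30 and 0.25. Of 14 core pluripotency genes 4 were higher in all 3 pairs and 1 was lower, and Pou5f1 (Oct4) differed by -0.05, 0.02 and -0.08. In bulk samples, fewer cells of a type and less RNA per cell cannot be told apart.

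The median of primitive endoderm genes was lower in each pair, while that of definitive endoderm genes was not. Of 31 primitive and visceral endoderm genes, 0 were higher in all 3 pairs and 17 were lower, with medians of -0.27, -0.40 and -0.29. Gata4, a zinc finger factor of this lineage, was at 9.21, 10.98 and 9.40 without dox and 8.69, 10.56 and 9.0 with dox (pair differences -0.51, -0.42 and -0.41, adjusted p = 0.159). Both arrays of replicate 2 lay far above the other 4, so the groups overlapped although the pair differences were nearly equal. Lama1, a laminin chain of the basement membrane, was lower by 0.95, 0.68 and 0.35, Sox7 by 0.36, 0.91 and 0.40, and the collagen IV chain Col4a1 by 0.49, 0.56 and 0.41. Apoe, which carries lipids, was lower by 0.47, 0.41 and 0.38, and Serpinh1, a collagen chaperone, by 0.33, 0.40 and 0.42. The lineage factors Gata6 (0.05, -0.51 and 0.09) and Sox17 (-0.08, -0.52 and 0.07) lay more than 0.1 lower in pair 2 alone. Among later visceral endoderm markers, Afp was lower by 0.15, 0.25 and 0.48 and the uptake receptor Cubn by 0.80, 0.11 and 0.29. The other markers of that set differed in sign between pairs. Ttr, a carrier protein, had -0.05, 0.07 and -0.93, Amn had -0.26, 0.21 and -1.10, and Apoa1 had 0.25, -0.04 and -0.28. Of 25 definitive endoderm genes, 8 were higher in all 3 pairs and 1, Gata4, was lower, and the median was 0.15.

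**Figure D4:**
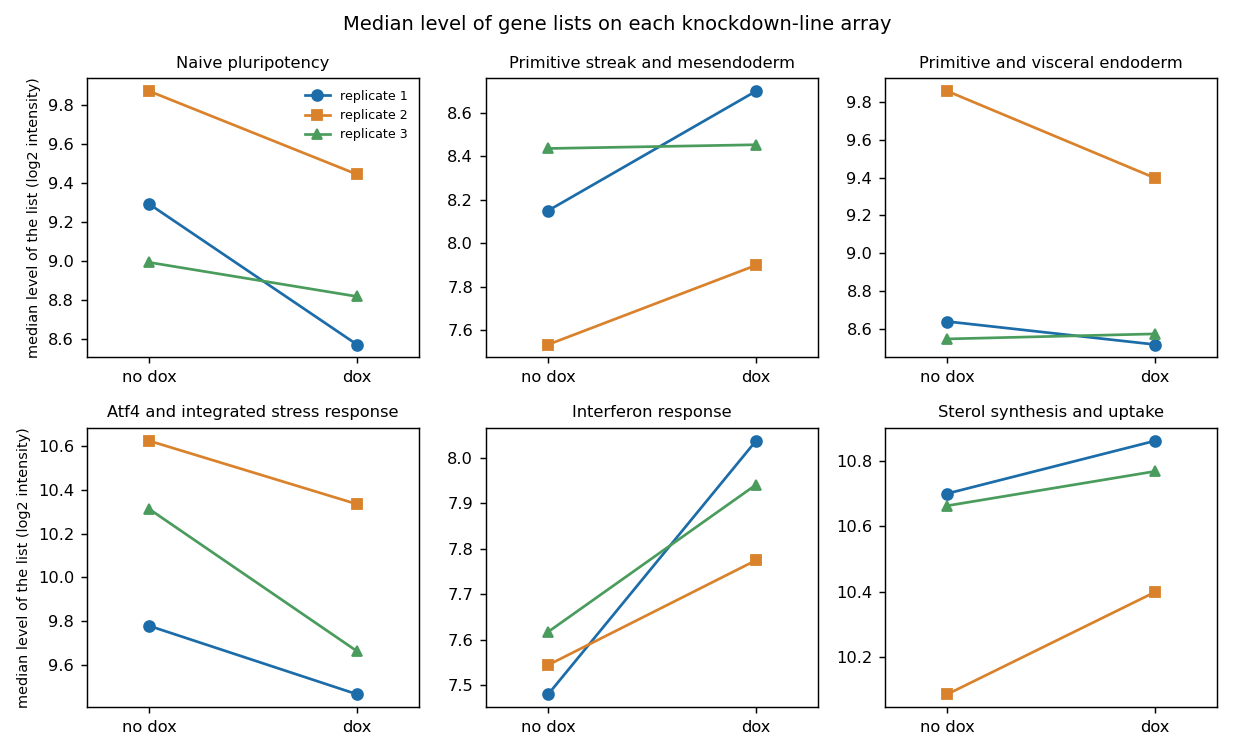
Median level of 6 gene lists on each knockdown-line array (y axis, log2 intensity, scaled for each list) without and with dox, with a line joining the arrays of 1 replicate. Replicate 2 starts higher in naive and primitive endoderm genes (9.87 and 9.86) and lower in streak and sterol genes (7.53 and 10.09) than replicates 1 and 3, by more than most lines change with dox.

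The same lists also separated the replicates from each other. Without dox, the median level of the primitive endoderm list was 8.64, 9.86 and 8.55 in replicates 1, 2 and 3, and that of the streak list 8.15, 7.53 and 8.44. In these lists replicate 2 lay further from replicates 1 and 3 than dox lay from control within any replicate, while replicates 1 and 3 lay closer to each other. The median of a list's levels can move less than the median of its members' differences, as in replicate 3 of the primitive endoderm list, which went from 8.55 to 8.57. Markers of other cell types were given for comparison as mean levels. Fibroblast markers of the feeder cells, of which 6 of 8 passed the filter (Postn and Lum did not), lay between 7.04 and 7.45 without dox and between 7.15 and 7.23 with dox. Neural markers lay at 8.13 to 8.44 and 7.99 to 8.20, and visceral endoderm markers at 8.03 to 8.72 and 7.83 to 8.69. For undifferentiated ES cells, the mean of 4 markers lay at 10.54 to 10.67 without and 9.88 to 10.55 with dox. That mean was lower by 0.65, 0.11 and 0.58. Its members were split, as Nanog was higher in each pair (0.19, 0.30 and 0.25) and Klf4 in pair 2 alone (0.15). The part of shifts in cell type in the differences above was not tested.

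Genes of the integrated stress response, which the factor Atf4 turns on when amino acids or translation initiation are limiting, lay lower with dox in most members. Of 33 tested members, 25 were lower in all 3 pairs and 0 were higher. An unadjusted p under 0.05 in limma as lower was held by 20 (4.65% of all genes). With the trended and robust prior 6 passed as lower (0.245% of all genes). The medians were -0.15, -0.29 and -0.22. Chac1, which breaks down glutathione, was at 8.92, 9.21 and 8.88 without and 7.59, 8.70 and 7.70 with dox, a mean difference of -1.01 ± 0.15 (SE, adjusted p = 0.159). The groups did not overlap, and replicate 2 held the smallest difference. Trib3, a pseudokinase induced by Atf4, was lower by 0.88, 0.40 and 1.01. Atf4 itself was lower by 0.21, 0.33 and 0.38, and its partner Ddit3 (CHOP) by 0.17, 0.36 and 0.34. The amino acid transporters Slc7a1 and Slc6a9 were lower by 0.46, 0.44 and 0.66 and by 0.57, 0.41 and 0.52. The one-carbon enzyme Mthfd2 was lower by 0.31, 0.29 and 0.65. Asparagine synthetase (Asns) was lower by 0.13, 0.37 and 0.24. Ddit4 differed in sign between pairs (0.24, -0.76 and 0.24).

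Genes of the unfolded protein response of the endoplasmic reticulum did not lie lower with them. Of 19 tested members, 10 were higher in all 3 pairs and 2 were lower, with a median of 0.09. The chaperone Hspa5 (BiP) was higher by 0.15, 0.31 and 0.25, and the disulfide isomerase Pdia4 by 0.22, 0.25 and 0.28. Herpud1, a degradation factor of that organelle, was lower by 0.44, 0.38 and 0.62. Its 250 promoter bases, like those of Chac1, hold TGATGCAA, a site held by only 5 of 25 Atf4 genes with a promoter entry. Whether the site bears on the difference was not tested.

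Interferon genes lay higher in a subset. Of 25 tested members of the interferon response list, 10 were higher in all 3 pairs, 1 was lower and 7 reached 1.2-fold in each pair (0.734% of all genes). The medians were 0.19, 0.13 and 0.29 by pair. The median of the members' mean differences was 0.09, with 17 members higher and 8 lower. In the overexpression line that median was 0.08, with 0.167, -0.003 and 0.095 by pair, so the lines were close in this list. Gbp3, a guanylate-binding GTPase, was at 7.45, 7.25 and 7.35 without dox and 8.05, 7.77 and 8.15 with dox, and the groups did not overlap (mean difference 0.64 ± 0.10 SE, adjusted p = 0.159). Irgm1, an immunity-related GTPase that is outside this list, went from 8.62 to 9.24, from 7.52 to 8.30 and from 8.17 to 9.0 (mean 0.74 ± 0.07 SE, adjusted p = 0.0927), the smallest p after Hprt. Parp9 and Dtx3l, partners in ubiquitin ligation whose genes are neighbours, were higher by 0.67, 0.43 and 0.50 and by 0.52, 0.46 and 0.47. The immunoproteasome subunit Psmb8 was higher by 0.46, 0.40 and 0.67. Other classical members of the list did not follow. Rsad2 had -0.25, 0.14 and -0.13, Bst2 had -0.23, -0.08 and 0.01, and Irf7 had -0.03, -0.01 and 0.31.

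Sterol genes lay higher with dox, most of all in pair 2. Of 17 tested members of sterol synthesis and uptake, 13 were higher in all 3 pairs and 0 were lower, with medians of 0.16, 0.48 and 0.08. Hsd17b7, a cholesterol synthesis enzyme, was at 9.33, 8.21 and 8.73 without dox and 9.69, 8.72 and 9.28 with dox. Its difference was of similar size in each pair (0.36, 0.51 and 0.56), while that of Hmgcs1, the enzyme that opens the mevalonate pathway, was 0.18, 0.65 and 0.21.

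**Figure D5:**
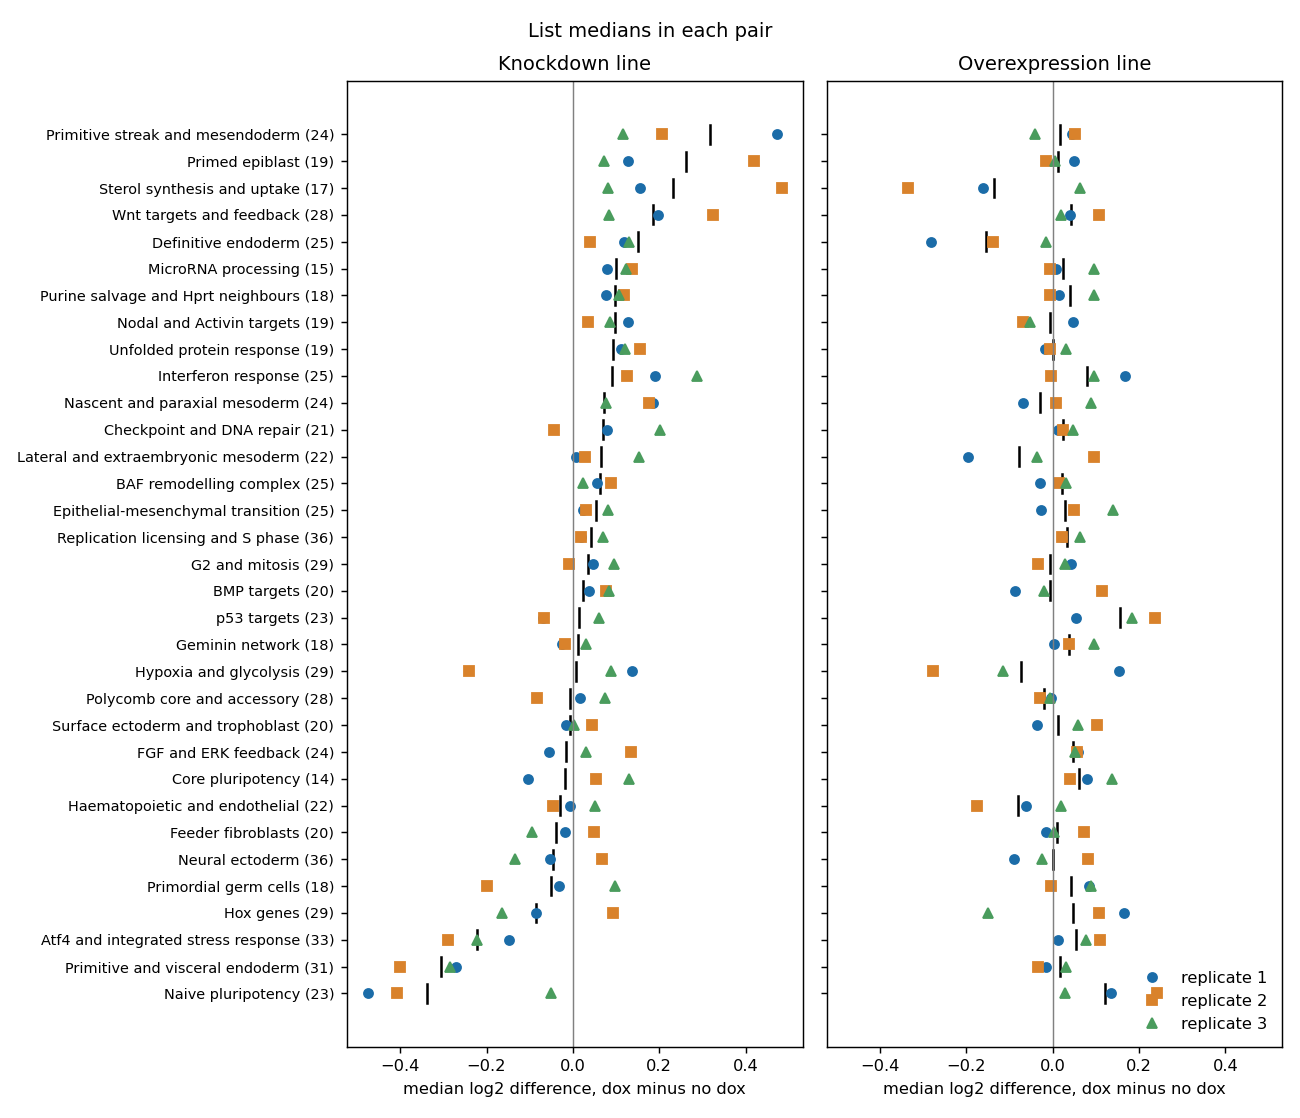
Median log2 difference, dox minus no dox, of the tested members of 33 gene lists (number of members in brackets) in each pair (points) and for the mean difference (bar), in the knockdown line (left) and the overexpression line (right). In the knockdown line the 3 points lie below 0 for the naive, primitive endoderm and Atf4 lists. They lie above 0 for the streak, primed epiblast, sterol, Wnt and interferon lists. The same holds for several other lists, such as definitive endoderm, unfolded protein response and microRNA processing. The median of all genes was also above 0 in each pair (0.01, 0.02 and 0.03).

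The lists nearest to Geminin's known partners (Geminin network, licensing, Polycomb and BAF) had medians from -0.01 to 0.06, against 0.01 over all genes. Of 18 genes of the Geminin network, 2 were higher in all 3 pairs and 4 were lower, with a median of 0.01. Cdt1, the licensing factor that Geminin holds inactive, was at 11.07, 11.25 and 11.16 without dox and 10.79, 10.98 and 10.98 with dox, and the groups did not overlap (mean difference -0.24 ± 0.06 SE, adjusted p = 0.287). Cdc6, which loads the helicase with Cdt1, was higher by 0.16, 0.31 and 0.07. Of 36 licensing and S phase genes, 12 were higher in all 3 pairs and 3 were lower, with a median of 0.04. Ccne2 (cyclin E2) was higher by 0.41, 0.45 and 0.47, and Gins1, a helicase subunit, by 0.21, 0.21 and 0.31. In the checkpoint and repair list, Clspn, the adaptor of the replication checkpoint kinase, was higher by 0.24, 0.30 and 0.21, and the median was 0.07. The p53 list had a median of 0.01, with 4 of 23 higher and 3 lower in all 3 pairs. Of 28 Polycomb genes 5 were higher and 5 lower in all 3 pairs, and of 25 BAF genes 9 and 1 (19.5% and 12.2% of all genes). The medians of the Polycomb and BAF lists were -0.01 and 0.06. The Hox list held 2 of 29 higher and 3 lower in all 3 pairs and a median of -0.08. Of 15 genes of microRNA processing, the machinery the knockdown relies on, 10 were higher in all 3 pairs and 0 were lower, with medians of 0.08, 0.14 and 0.12. Ago3 was higher by 0.36, 0.20 and 0.36, and Dicer1 by 0.09, 0.27 and 0.27. Of 18 genes of purine salvage and around Hprt, a list that includes Hprt itself, 11 were higher in all 3 pairs and 1 was lower, with medians of 0.08, 0.12 and 0.11. The medians of the lists for Nodal, FGF, epithelial-mesenchymal transition, surface ectoderm, neural ectoderm, germ cells, mitosis, hypoxia and feeder fibroblasts lay between -0.05 and 0.10. In the Nodal list, at the top of that range, 7 of 19 were higher in all 3 pairs and 1 was lower. In the mitosis list 10 of 29 were higher and 3 lower, and in the epithelial-mesenchymal transition list 8 of 25 and 2. These shares were 19.5% and 12.2% over all genes.

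The overexpression line, given dox for a shorter time, was set beside these differences. The 117 genes at least 1.2-fold higher in each knockdown pair had a median difference of 0.46 there and of -0.01 in the overexpression line, and the 62 lower genes -0.47 and 0.05. Because these genes were chosen on the knockdown differences, the gap between the lines is a description. The difference between the lines passed the adjusted test for 0 of 15950 genes in limma (0%) and had an unadjusted p under 0.05 for 1384 (8.68%). Gmnn had the smallest p of that difference, at -1.32 ± 0.14 (SE, adjusted p = 0.486), and its own mean there was 0.82. Eomes differed between the lines by 1.19 ± 0.19 (SE), with means of 0.88 and -0.31, and Rspo3 by 0.70 ± 0.10 (SE), with 0.64 and -0.06. Neither passed the adjusted test (adjusted p = 0.486 for both).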

How the data were processed

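Expression was measured on 12 Affymetrix arrays of sense-strand target with a biotin label, per the labels' protocols. Deposited were linear probe-set intensities, and how the authors summarised, background-corrected and normalized these intensities is not given in the sources used here. Precision is limited by the number of arrays, 1 for each sample. Deposited array means lay between 677 and 697 in the knockdown line. The deposited intensities were turned into log2(intensity + 1) and quantile-normalized over 35512 probe sets, and fold changes are on that scale. Of these probe sets 21789 had 1 gene in the platform annotation, 1621 several and 12102 none. The gene number of 21698 was found in the RefSeq table (GRCm38.p6) and 0 symbols were updated. The brightest probe set stood for a gene, and genes with a mean below the 20th percentile (log2 6.46) were left out.

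The fit used limma 3.58.1 in R 4.3.3 on all 12 arrays, with the line and replicate number as a block and a dox effect per line (4 residual and 3.07 prior degrees of freedom). Calls had a Benjamini-Hochberg adjusted p under 0.05 over 15950 genes. The script was tested on simulated arrays. The pairing comes from the replicate numbers in the labels. Deviations from the group means correlated at 0.602, 0.438 and 0.051 for same-numbered arrays 1, 2 and 3, so array values do not show a pairing in replicate 3.

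The comparison, the 33 gene lists (852 entries) and the motifs were chosen with earlier results of these data known, so no list count is independent evidence. The text names Gmnn, Hprt, up to 12 genes per direction (called genes with 3 pairs of 1 sign, then smallest p), up to 5 members per list with the largest mean difference of 1 sign in 3 pairs, and the 6 genes with the widest range between pairs. Other members of these lists and genes outside them were named after their values were seen. Left unnamed were predicted gene models, olfactory and vomeronasal receptors and small RNAs. Alternatives were no pairing, the knockdown arrays alone, a separate effect per day in the overexpression line, no quantile normalization, median centring, a pseudocount of 16, no filter, a 40th percentile filter, the mean of probe sets, a trended and robust variance prior, and each pair left out.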

Additional observations from a re-analysis of the deposited data

Results flagged for a closer look

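In 3 gene lists the median difference with dox had 1 sign in all 3 knockdown pairs and the opposite sign in all 3 pairs of the overexpression line, and this difference was not tested. The naive pluripotency median was -0.34 in the knockdown line and 0.12 in the overexpression line, a gap of -0.46. For the Atf4 and integrated stress response list the medians were -0.22 and 0.05, a gap of -0.28. For the definitive endoderm list they were 0.15 and -0.16, a gap of 0.31. The lines also differed in the day dox began and, for 2 of 3 replicates, in the day of collection, which cannot be told apart from the cassette. No group here has 4 or more samples, so single arrays were not screened for outliers.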

How the results depend on the processing

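The number of called genes depended on the variance model and the scaling: 1 in the fit reported, 0 with the knockdown arrays alone and 0 with a separate overexpression effect per day, 2 with the 40th percentile filter, 62 with median centring (53 higher, 9 lower), 87 with the trended and robust prior, and 0 to 6 with 1 pair left out (0 without replicate 1, 6 without replicate 2, 3 without replicate 3). Without the replicate block the call was 1 and the genes at an unadjusted p under 0.05 were 599 against 1941. That split was 1199 higher and 742 lower as reported, 775 and 1107 without quantile normalization, and 1222 and 442 with median centring, which moved the median of all genes from 0.01 to -0.04 and 0.07. Genes at least 1.2-fold higher in each pair were 75 without quantile normalization, 177 with median centring and 251 to 523 with a pair left out. Those lower were 97, 22 and 147 to 575, and 126 without the filter. Fewer pairs must share the fold when 1 is left out. Called differences between the lines were 11 with median centring, 7 with the trended prior and 0 to 1 with a pair left out.

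Gmnn kept its sign under every alternative run (-0.55 to -0.41 with a pair left out) and passed with the trended prior (-0.50, adjusted p = 0.0315). Hprt stayed at 3.81 with the knockdown arrays alone (adjusted p = 0.176) and with a separate effect per day (adjusted p = 0.05), both not called, and ranged from 3.58 to 4.11 with a pair left out. Among named genes, 7 values changed sign: Dtl (0.0763), Rif1 (0.0299), Slc2a3 (0.0142) and Tal1 (0.0046) with median centring, H2bc21 without replicate 1 (0.0694) and without replicate 2 (0.46; -0.778 without replicate 3), and Lrat without replicate 3 (0.0131; down to -1.405 without replicate 2). The other named-gene values kept their sign, 1981 on the same side of the threshold and 65 newly past it. Of the list medians 415 stayed within the spread of the pairs and 40 moved further. The naive median was -0.46 without replicate 3 and -0.19 without replicate 1, the sterol median 0.33 without replicate 3 and 0.08 without replicate 2, and the primed epiblast median 0.24 and 0.12 likewise. The causes were not tested. With 3 pairs and 4 residual degrees of freedom, adjusted p-values of 0.159 were reached by differences of 0.4 to 1.0 that had 1 sign in each pair.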

Other observations

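Lysosomal genes lay lower with dox. The list of 50 tested genes was put together after the values were seen, so its counts are a description: 27 were lower in all 3 pairs and 1 was higher, with medians of -0.16, -0.28 and -0.05 by pair. The median over the pairs was -0.18, and it ranged from -0.22 without replicate 3 to -0.10 without replicate 2. Ctsa, a protective carboxypeptidase, was at 11.11, 11.81 and 11.03 without dox and 10.65, 11.24 and 10.65 with dox. The glycosidases Hexa and Gaa were lower by 0.34, 0.49 and 0.37 and by 0.43, 0.49 and 0.35, and the protease Ctsd by 0.31, 0.42 and 0.30. Membrane proteins followed, with the calcium channel Mcoln1 lower by 0.32, 0.35 and 0.34, Lamp1 by 0.23, 0.33 and 0.32 and the proton pump subunit Atp6v0d1 by 0.28, 0.28 and 0.34. With the trended and robust prior 11 of the 50 passed as lower, against 0.245% of all genes. Others did not follow, such as Npc1 (0.09, -0.07 and 0.13) and Ids (0.13, 0.04 and 0.48). In the overexpression line the list's median was 0.03.

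Genes of antigen presentation and of the interferon gamma response, also listed after the values were seen, lay higher in part. Of 25 tested, 12 were higher in all 3 pairs and 1 was lower, with medians of 0.20, 0.17 and 0.16. Erap1, which trims peptides for presentation, was higher by 0.63, 0.91 and 0.38, Gbp4 by 0.69, 0.49 and 0.87, the transcription factor Irf1 by 0.64, 0.48 and 0.21, and the immunoproteasome subunit Psmb10 by 0.45, 0.66 and 0.25. Without dox Gbp4 lay at 6.49, 6.51 and 6.38, near the filter on dim genes (6.46). B2m, the light chain of the presenting complex, was lower by 0.25, 0.48 and 0.13. The receptor chains Ifngr1 and Ifngr2 differed by 0.21, -0.06 and 0.36 and by -0.02, 0.17 and -0.26.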
